A study of Mus musculus with 9 samples.

Results

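The 9 genes described here encode proteins of the myelin sheath, the multilayered membrane that oligodendrocytes wrap around axons. They are Mbp, Mobp, Mal, Pllp and Cldn11, whose products are placed in compact myelin or its junctional strands, and Cnp, Mag, Mog and Opalin, whose products lie in the cytoplasm-filled channels, the inner membrane facing the axon, the outermost layer and the loops of the sheath. The genes were chosen by symbol, and all 9 of 9 were among the 11315 genes measured. They were followed through 9 RNA sequencing libraries from brain cells of C57BL/6 mice at postnatal day 60, sorted by fluorescence in 3 groups of 3.

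PDGFRa-GFP cells carry a green reporter named for the platelet-derived growth factor receptor alpha, and the labels call them oligodendrocyte progenitors. PLP-GFP cells carry another green reporter and are called pre-myelinating oligodendrocytes. NDRG1-eGFP cells carry one named for NDRG1 and are called myelinating oligodendrocytes. All groups share the strain, age and tissue. How the reporters were built is not given in the sources used here. Nothing in the labels ties a replicate to an animal of its own, and each p-value therefore reflects library-to-library spread that may be technical.

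Compact myelin forms when the cytoplasmic faces of the oligodendrocyte membrane are drawn together by myelin basic protein, while adhesion and junction proteins hold the sheath to the axon and seal its layers. Progenitors are known to express these genes weakly, and their transcripts rise to great abundance as the cells begin to myelinate. Mbp and Mobp transcripts are also known to be carried along the processes and translated close to the forming sheath.

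3 of these genes, Mog, Opalin and Pllp, were lowest in the same group, and Cldn11 followed another course. That order is of the deposited values. With each library's trend on transcript length removed, only Opalin of the 3 differed between PLP-GFP and both other groups (limma adjusted p under 0.05). The sequence just upstream of the annotated starts is given to show the DNA of these 3 genes beside that of Cldn11. Each run is from RefSeq on GRCm38.p6, reads 5′ to 3′ on the strand of the gene, holds up to 250 bases and stops before the first annotated start. Capitals mark matches on either strand to the core that SOX factors bind (ACAAAG or ACAATG), to the MYRF motif (CTGGCAC or CTGGTAC) or to an E-box (CAGCTG).
Mog, chr17:37023399-37023648, minus strand: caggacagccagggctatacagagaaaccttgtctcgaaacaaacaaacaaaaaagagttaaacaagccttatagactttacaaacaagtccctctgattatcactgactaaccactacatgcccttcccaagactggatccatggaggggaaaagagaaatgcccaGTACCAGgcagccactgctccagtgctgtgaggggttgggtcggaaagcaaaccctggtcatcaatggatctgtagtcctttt
Opalin, chr19:41077114-41077363, minus strand: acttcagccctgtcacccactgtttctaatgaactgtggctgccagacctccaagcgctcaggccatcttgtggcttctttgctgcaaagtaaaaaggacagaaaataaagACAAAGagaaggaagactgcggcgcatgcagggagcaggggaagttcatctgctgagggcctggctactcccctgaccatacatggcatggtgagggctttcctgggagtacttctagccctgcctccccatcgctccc
Pllp, chr8:94696279-94696492, minus strand: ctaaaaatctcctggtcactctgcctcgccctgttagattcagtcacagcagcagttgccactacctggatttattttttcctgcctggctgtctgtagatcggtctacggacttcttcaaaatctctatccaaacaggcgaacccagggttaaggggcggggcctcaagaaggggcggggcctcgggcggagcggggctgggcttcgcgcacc
Cldn11, chr3:31149670-31149919, plus strand: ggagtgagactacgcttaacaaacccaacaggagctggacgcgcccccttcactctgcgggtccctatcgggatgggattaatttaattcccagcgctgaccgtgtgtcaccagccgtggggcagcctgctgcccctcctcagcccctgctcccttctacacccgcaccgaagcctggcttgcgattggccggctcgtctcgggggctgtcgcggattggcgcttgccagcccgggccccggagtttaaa
Mog held 1 match, to the MYRF motif on the opposite strand, starting at position 168 of the run. Opalin held 1 match, to the SOX core, starting at position 112. The run of Pllp is shorter, 214 bases, because GENCODE places its start further upstream than RefSeq, and like that of Cldn11 it held no match. Of 32851 RefSeq promoters cut to 250 bases, 25.2% held the SOX core, 5.93% the MYRF motif and 13.0% the E-box, and at 214 bases the shares were 22.6%, 5.11% and 11.1%. A match is a run of letters and not evidence of binding. GC content was 46.8% for Mog, 54.4% for Opalin, 57.0% for Pllp and 63.6% for Cldn11.

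All 9 genes were among the most abundant transcripts of every library, those labelled progenitors included. Values are the deposited normalized values, read as log2 from their range, with a median over genes of 10.57 in each library. No read counts were used, so the depth behind a value is unknown. Each library held almost the same set of values in another gene order, and the rank of a gene in its library, with 1 the highest of 11315, carries nearly the same information. The least abundant placing of any of the 9 was rank 266, for Opalin in PLP-GFP replicate 2.

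The high levels of these genes in PDGFRa-GFP went against the label of progenitors. The 9 values lay between 15.62 and 19.71 in PDGFRa-GFP replicate 1, while Pdgfra itself averaged 6.63 ± 1.05 (SD, n = 3) in that group, 2.71 ± 1.96 in PLP-GFP and 5.70 ± 0.65 in NDRG1-eGFP. Pdgfra was thus below the median gene everywhere, although PLP-GFP lay below PDGFRa-GFP by a log2 fold change of -3.92 (95% interval -6.13 to -1.70, limma adjusted p = 0.0274). Of 19 progenitor markers 13 were measured. Their median was 7.83, 8.63 and 6.79 in PDGFRa-GFP replicates 1, 2 and 3. It ran from 6.72 to 6.95 within PLP-GFP and from 6.21 to 7.15 within NDRG1-eGFP. PDGFRa-GFP replicates 1 and 2 lay above both other groups, and replicate 3 lay among them. Sums did not follow that order. They were 584 to 1021 ppm of the summed linear values in PDGFRa-GFP, 952 to 1156 in PLP-GFP and 881 to 1003 in NDRG1-eGFP. By limma, PLP-GFP was lower than PDGFRa-GFP in 2 of the 13, Pdgfra and Neu4, and higher in 1, Lrrn1. NDRG1-eGFP was lower than PDGFRa-GFP in 1, Vcan, and higher in 1, Lrrn1. The groups are therefore named by their reporters. In bulk samples, fewer cells of a type and less RNA per cell cannot be told apart.

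Together the 9 genes made up 4.75%, 4.66% and 3.42% of the summed linear values in PDGFRa-GFP replicates 1, 2 and 3. The shares were 4.27%, 4.01% and 4.30% in PLP-GFP libraries and 5.69%, 5.21% and 5.27% in NDRG1-eGFP libraries. All 3 NDRG1-eGFP libraries lay above the other 6, and PDGFRa-GFP replicate 3 lay below all others.

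**Figure D1:**
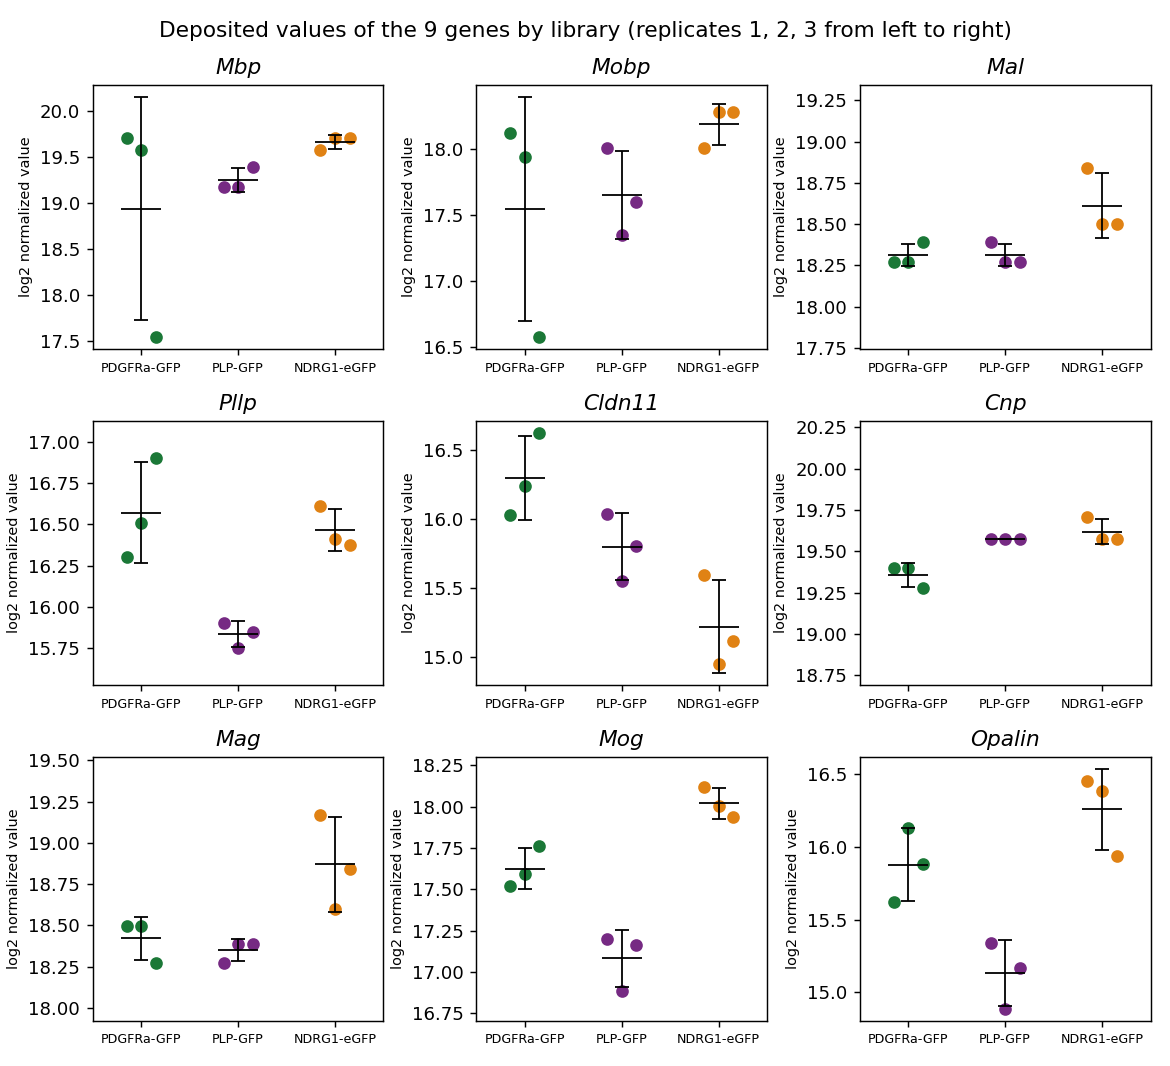
Deposited log2 values of the 9 genes in each library, with replicates 1 to 3 from left to right within a group, and the mean and SD (n = 3) in black. Mog, Opalin and Pllp were lowest in PLP-GFP, Cldn11 was lowest in NDRG1-eGFP, and Mbp and Mobp fell apart from their group in PDGFRa-GFP replicate 3.

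Mbp encodes myelin basic protein, the cytoplasmic protein that compacts the membrane. Its values were 19.71, 19.58 and 17.55 in PDGFRa-GFP replicates 1, 2 and 3, 19.17, 19.17 and 19.40 in PLP-GFP, and 19.58, 19.71 and 19.71 in NDRG1-eGFP. The NDRG1-eGFP libraries all lay above the PLP-GFP libraries, and PDGFRa-GFP spanned both of them and more, from rank 3 to rank 24.

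Mobp (chromosome 9, 120149707 to 120181484, GRCm38), another small basic protein of compact myelin, had a similar pattern. Its values were 18.12, 17.94 and 16.57 in PDGFRa-GFP, 18.00, 17.34 and 17.59 in PLP-GFP, and 18.00, 18.27 and 18.27 in NDRG1-eGFP. The PLP-GFP and NDRG1-eGFP libraries overlapped at 1 tied value. PDGFRa-GFP replicate 3 was again the lowest, at rank 54 against 13 to 28 elsewhere. The exons of Mobp share 79 bases with Gm38642 on the same strand.

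Mal (chromosome 2, 127633226 to 127656695) encodes a proteolipid of lipid-rich membrane domains. It held 18.27, 18.27 and 18.39 in PDGFRa-GFP, 18.39, 18.27 and 18.27 in PLP-GFP, and 18.84, 18.50 and 18.50 in NDRG1-eGFP. The PDGFRa-GFP and PLP-GFP libraries shared the same pair of ranks, 12 and 13, and every NDRG1-eGFP library stood higher, at ranks 9 and 11.

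Pllp (chromosome 8, 94674894 to 94696278) encodes plasmolipin, a relative of Mal. Its values were 16.30, 16.51 and 16.90 in PDGFRa-GFP, 15.91, 15.75 and 15.85 in PLP-GFP, and 16.61, 16.41 and 16.38 in NDRG1-eGFP. All 3 PLP-GFP libraries lay below the other 6, at ranks 95 to 110 against 40 to 68. An antisense gene, Gm45767, overlaps 1128 exonic bases of Pllp, and without knowledge of strand in the counting the reads of the pair cannot be told apart.

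Cldn11 (chromosome 3, 31149920 to 31164324) encodes the claudin that forms the tight junction strands of the sheath. It ran 16.03, 16.24 and 16.63 in PDGFRa-GFP, 16.04, 15.55 and 15.80 in PLP-GFP, and 15.60, 14.95 and 15.12 in NDRG1-eGFP. Neighbouring groups overlapped, PDGFRa-GFP and NDRG1-eGFP did not, and the rank went from 51 to 86 in the former to 131 to 249 in the latter.

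Cnp (chromosome 11, 100574904 to 100591729) encodes the phosphodiesterase that keeps cytoplasmic channels open in the sheath. It stood at 19.40, 19.40 and 19.28 in PDGFRa-GFP, 19.58 in all 3 PLP-GFP libraries, and 19.71, 19.58 and 19.58 in NDRG1-eGFP. The PDGFRa-GFP libraries lay lowest, but the whole span was ranks 3 to 6. Its exons share 154 bases with Dnajc7 on the opposite strand.

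Mag (chromosome 7, 30899176 to 30914873), the adhesion molecule of the membrane facing the axon, held 18.50, 18.50 and 18.27 in PDGFRa-GFP, 18.27, 18.39 and 18.39 in PLP-GFP, and 19.17, 18.60 and 18.84 in NDRG1-eGFP. The NDRG1-eGFP libraries lay above all others, at ranks 7 to 10 against 11 to 13.

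Mog (chromosome 17, 37010743 to 37023398), an immunoglobulin-like protein of the outermost layer, had values of 17.52, 17.59 and 17.76 in PDGFRa-GFP, 17.20, 16.89 and 17.16 in PLP-GFP, and 18.12, 18.00 and 17.94 in NDRG1-eGFP. The groups did not overlap, with ranks of 15 to 17 in NDRG1-eGFP, 19 to 25 in PDGFRa-GFP and 31 to 41 in PLP-GFP.

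Opalin (chromosome 19, 41061710 to 41077113), a glycoprotein of the oligodendrocyte membrane and sheath loops, had values of 15.62, 16.13 and 15.88 in PDGFRa-GFP, 15.34, 14.88 and 15.17 in PLP-GFP, and 16.45, 16.39 and 15.94 in NDRG1-eGFP. All PLP-GFP libraries lay lowest, at ranks 172 to 266, and the other groups overlapped, with ranks of 79 to 127 in PDGFRa-GFP and 59 to 92 in NDRG1-eGFP.

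**Figure D2:**
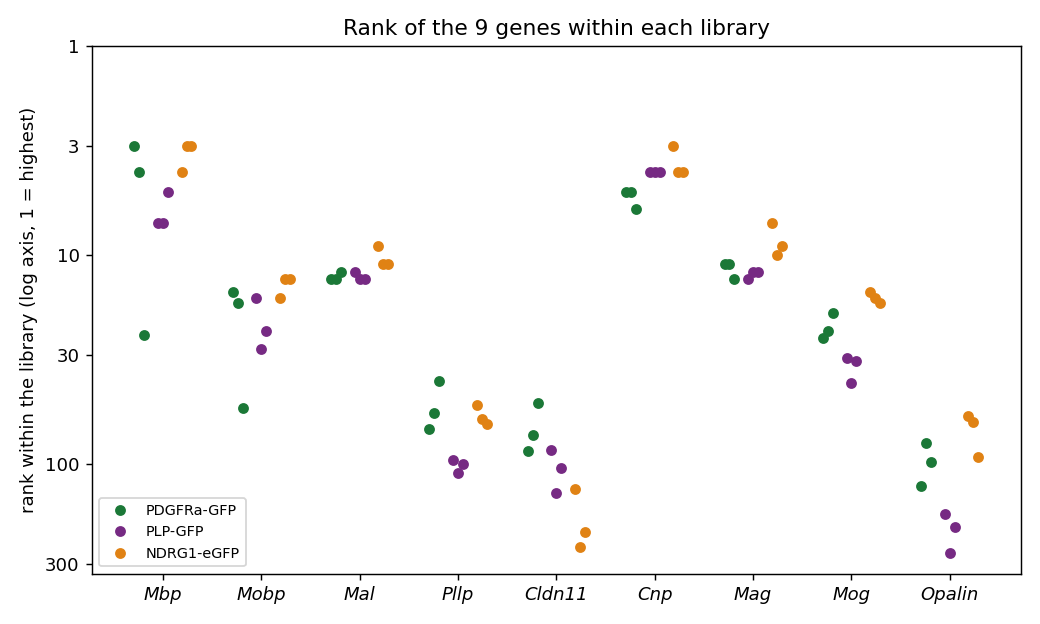
Rank of each gene within each library on a log axis, with 1 the highest of 11315 genes and each point 1 library. Cnp stayed within ranks 3 to 6 in all libraries, while Opalin ranged from 59 to 266 and Cldn11 from 51 to 249.

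At the top of the table a small shift in rank is a visible shift in value. The step from rank 3 to rank 4 was 0.13 on the log2 scale and that from rank 10 to rank 11 was 0.10, against 0.01 at rank 50. Differences of Cnp and Mal between groups therefore amounted to a few places, and those of Opalin and Cldn11 to many more.

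Levels of different genes were compared after division by the longest annotated transcript, as log2 per kilobase. Cnp was highest in each group, at 17.82 ± 0.07 (SD, n = 3) in PDGFRa-GFP, 18.04 ± 0.00 in PLP-GFP and 18.08 ± 0.08 in NDRG1-eGFP, and Mag had the next highest mean, at 17.14 ± 0.13, 17.07 ± 0.07 and 17.59 ± 0.29. In PLP-GFP, Mag did not differ from Mbp (16.98 ± 0.13) beyond their spread, and in NDRG1-eGFP neither did Mag and Mbp (17.40 ± 0.08). In PDGFRa-GFP, Mog (16.86 ± 0.12), Mal (16.84 ± 0.07) and Mbp (16.68 ± 1.21) lay within their spread of each other. Mobp came sixth in every group, at 15.83 ± 0.85, 15.93 ± 0.33 and 16.47 ± 0.16.

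The 3 lowest places changed hands. In PDGFRa-GFP the order was Pllp (15.63 ± 0.31), Cldn11 (15.40 ± 0.30) and Opalin (14.40 ± 0.25). Pllp and Cldn11 overlapped in their spread between libraries. Within each library Pllp was the higher, by 0.27, 0.26 and 0.28 before division by length. In PLP-GFP Cldn11 (14.90 ± 0.24) and Pllp (14.89 ± 0.08) were level, above Opalin (13.65 ± 0.23). In NDRG1-eGFP Cldn11 was last (14.32 ± 0.34), below Opalin (14.78 ± 0.28) and Pllp (15.52 ± 0.13). The several transcripts of Mbp and Mobp make a single length a rough divisor.

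NDRG1-eGFP was compared with PLP-GFP to ask what sets the cells labelled myelinating apart from those labelled pre-myelinating. Opalin rose most, by a log2 fold change of 1.13 ± 0.18 (SE, n = 3, limma adjusted p = 0.000866), followed by Mog (0.94 ± 0.13, limma adjusted p = 4e-04), Pllp (0.63 ± 0.16, limma adjusted p = 0.00732) and Mag (0.52 ± 0.16, limma adjusted p = 0.0210). Cldn11 fell by 0.58 ± 0.21 (limma adjusted p = 0.0397), with libraries that overlapped at the edge. Mobp (0.54 ± 0.35), Mbp (0.42 ± 0.45), Mal (0.30 ± 0.13) and Cnp (0.04 ± 0.12) did not pass the test.

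Thus 4 of 9 rose, where 26.1% of all genes did, and 1 of 9 fell, where 22.2% did. With 48.3% of all genes called in either direction, 5 of 9 is close to the background. The median log2 fold change of the 9 was 0.52, against 0.08 over all genes.

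The calls for Mbp and Mobp turned on the spread in a group outside this comparison. In the fit of all 9 libraries the 95% interval of Mbp ran from -0.58 to 1.41 and that of Mobp from -0.23 to 1.30. Without PDGFRa-GFP replicate 3 the fold changes stayed at 0.42 ± 0.12 and 0.54 ± 0.16 and both passed (limma adjusted p = 0.0129 and 0.0157). In that fit 6 of 9 rose and 1 fell, beside 3783 higher and 3125 lower of all 11315 genes. Over 19 refits the adjusted p-values of Mbp and Mobp ran from 0.0129 to 0.607 and from 0.0157 to 0.468.

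Values depended on transcript length differently in each library, and the trend at the length of Mog was -0.19 to -0.33 in PLP-GFP and 0.22 to 0.39 in NDRG1-eGFP on the log2 scale. After each library's trend on length was removed, Opalin stood at 0.87 (limma adjusted p = 0.00453) and Mog at 0.35 (limma adjusted p = 0.0478), while Pllp (0.11) and Mag (0.15) no longer passed. Cldn11 went the other way, to -1.12 (limma adjusted p = 7.84e-04). Over the 19 refits adjusted p-values ran from 3.56e-04 to 0.00585 for Opalin, from 7.57e-05 to 0.0478 for Mog and from 7.84e-04 to 0.146 for Cldn11. Cldn11 no longer passed without PLP-GFP replicate 1 or 3 or NDRG1-eGFP replicate 2 or 3, and under the replicate block (limma adjusted p = 0.0508). Mag no longer passed without any 1 of the PLP-GFP replicates or without NDRG1-eGFP replicate 1, nor after recentring on the median ratio.

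**Figure D3:**
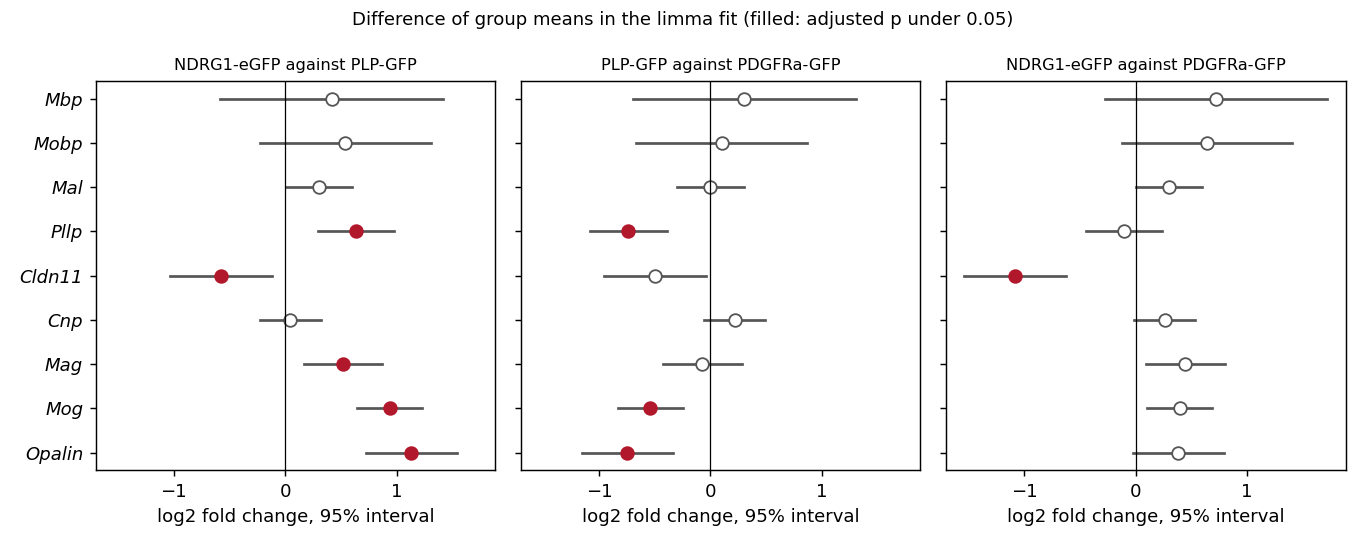
Log2 fold changes of the 9 genes in the 3 comparisons, as points with 95% intervals from the limma fit of all 9 libraries; filled points passed an adjusted p under 0.05. Opalin, Mog and Pllp were filled on opposite sides of 0 in the first pair of panels, and only Cldn11 was filled in the panel of NDRG1-eGFP against PDGFRa-GFP.

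A difference between 2 genes of 1 library does not change when that library is scaled as a whole. A normalization that acts on ranks can change it, and each difference given here includes Cldn11. Pllp minus Cldn11, whose longest transcripts are 1926 and 1870 bases, was 0.27, 0.26 and 0.28 in PDGFRa-GFP, -0.13, 0.20 and 0.04 in PLP-GFP, and 1.02, 1.47 and 1.26 in NDRG1-eGFP. The NDRG1-eGFP libraries stood apart from the other 6. Mog minus Cldn11 was 1.49, 1.35 and 1.13 in PDGFRa-GFP, 1.16, 1.33 and 1.36 in PLP-GFP, and 2.52, 3.05 and 2.82 in NDRG1-eGFP. Opalin minus Cldn11 was -0.41, -0.12 and -0.75 in PDGFRa-GFP, -0.70, -0.67 and -0.64 in PLP-GFP, and 0.86, 1.44 and 0.82 in NDRG1-eGFP. For Mog and Opalin the PDGFRa-GFP and PLP-GFP libraries overlapped in this difference, and NDRG1-eGFP alone stood apart. These pairs were chosen after their values were seen and carry no test.

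**Figure D4:**
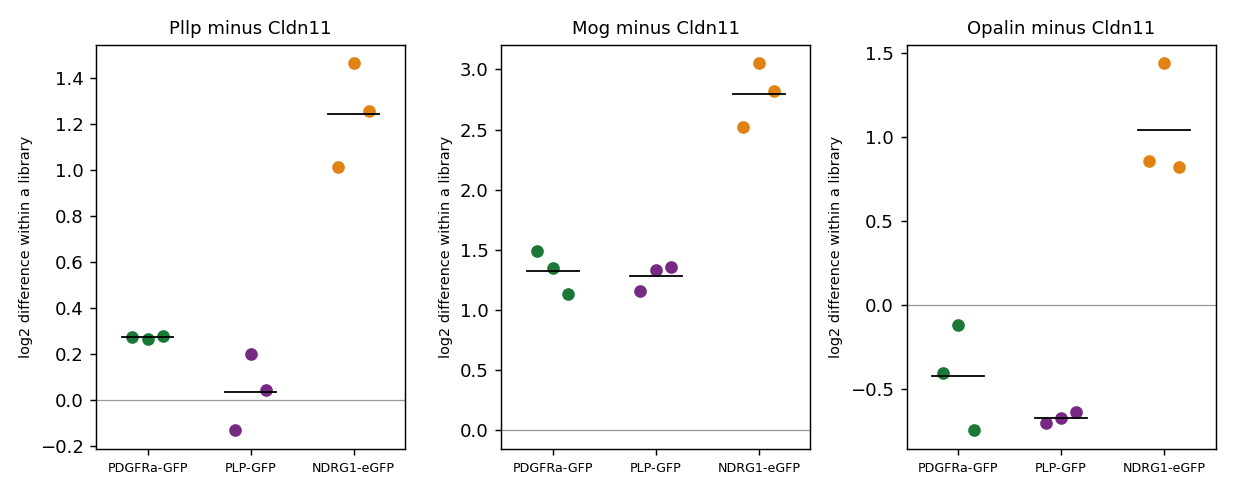
Log2 value of Pllp, Mog and Opalin minus that of Cldn11 in the same library, each point 1 library and each line the group mean (n = 3). In each panel the 3 NDRG1-eGFP libraries lie above the other 6.

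The earlier labelled step, into pre-myelinating cells, was read from PLP-GFP set against PDGFRa-GFP. Opalin fell by 0.75 ± 0.18 on the log2 scale (SE, n = 3, limma adjusted p = 0.0253), Pllp by 0.74 ± 0.16 (limma adjusted p = 0.0152) and Mog by 0.54 ± 0.13 (limma adjusted p = 0.0243). Cldn11 had a log2 fold change of -0.50 ± 0.21 and did not pass (limma adjusted p = 0.113). Values for the remaining genes were 0.30 ± 0.45 for Mbp, 0.22 ± 0.12 for Cnp, 0.10 ± 0.35 for Mobp, 0.00 ± 0.13 for Mal and -0.07 ± 0.16 for Mag.

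Of the 9 genes, 3 fell, where 8.53% of all genes did, and 0 rose by limma, where 8.46% did, for 17.0% called in either direction. At an unadjusted p under 0.05, 0 rose and 4 fell, counts that cannot be set against these shares, which are at an adjusted p. The median of the 9 was -0.07, against 0.03 over all genes. No call was left without PLP-GFP replicate 2 or without PLP-GFP replicate 3, and only Pllp passed without PDGFRa-GFP replicate 2. The same gene alone passed under the replicate block, where limma adjusted p was 0.0451 for Pllp, 0.0632 for Mog and 0.0617 for Opalin. With the length trend removed Mog stood at -0.24 (limma adjusted p = 0.225), and Pllp (-0.50) and Opalin (-0.70) passed. Over the 19 refits adjusted p-values ran from 0.0198 to 0.225 for Mog, from 0.0168 to 0.123 for Opalin and from 0.00867 to 0.0798 for Pllp.

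NDRG1-eGFP was compared with PDGFRa-GFP across the whole labelled course. Cldn11 was the only one of the 9 to pass, and it fell by 1.08 ± 0.21 on the log2 scale (SE, n = 3, limma adjusted p = 0.00574). It passed in all 20 alternatives that could change it, with limma adjusted p from 3.04e-04 to 0.0291 over the 19 refits. By limma 0 of 9 rose, where 10.7% of all genes did, and 1 fell, where 10.4% did, for 21.1% in either direction. Over all genes 1207 rose and 1176 fell, a split of 591 and 1362 once libraries were recentred by their median ratio, where 0 members were higher and 1 lower. At an unadjusted p under 0.05, 3 rose, namely Mog, Mag and Mal, and 1 fell. The share of all genes at that unadjusted threshold was not taken, so these counts carry no background.

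Mog stood at 0.40 ± 0.13 (limma adjusted p = 0.0559) and passed without PDGFRa-GFP replicate 3 (0.46, limma adjusted p = 0.0155) and among genes with a mean of at least 8. Mag had 0.45 ± 0.16 (limma adjusted p = 0.0701) and passed without NDRG1-eGFP replicate 2. The other log2 fold changes were 0.72 ± 0.45 for Mbp, 0.64 ± 0.35 for Mobp, 0.38 ± 0.18 for Opalin, 0.30 ± 0.13 for Mal, 0.26 ± 0.12 for Cnp and -0.10 ± 0.16 for Pllp. Thus Opalin and Pllp, which fell in PLP-GFP against PDGFRa-GFP and rose in NDRG1-eGFP against PLP-GFP, ended with 95% intervals of -0.03 to 0.79 and -0.45 to 0.24. With the length trend removed, Pllp passed as lower in NDRG1-eGFP than in PDGFRa-GFP (limma adjusted p = 0.0409). The comparisons share groups, so their values are not independent of each other.

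Mbp and Mobp parted from the other members in PDGFRa-GFP replicate 3. Compared with the mean of replicates 1 and 2, Mbp was lower there by a log2 difference of -2.09 and Mobp by -1.46. Pllp and Cldn11 were higher, by 0.50 and 0.49, and Mog by 0.20, while Opalin (0.01), Mal (0.12), Cnp (-0.12) and Mag (-0.23) lay nearer to 0. Of 2601 genes with a mean value of at least 12, 17 were as low as Mbp in this difference, Mbp included, and 68 as low as Mobp.

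Other measures moved in this library too, and their part in the result was not tested. It held 4454 distinct values, the fewest of the 9 libraries, against 5207 and 5007 in replicates 1 and 2. The median of 12 dissociation stress genes was 9.29, against 12.93 in both other replicates, and that of 12 newly formed oligodendrocyte markers was 9.58, against 11.06 and 11.09. Without this library Mbp in PLP-GFP against PDGFRa-GFP had a log2 fold change of -0.39 in place of 0.30, and Mobp -0.38 in place of 0.10. In NDRG1-eGFP against PDGFRa-GFP they had 0.02 and 0.15 in place of 0.72 and 0.64. None of these 4 passed, with limma adjusted p from 0.0578 for Mbp in the former comparison to 0.910 for Mbp in the latter.

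**Figure D5:**
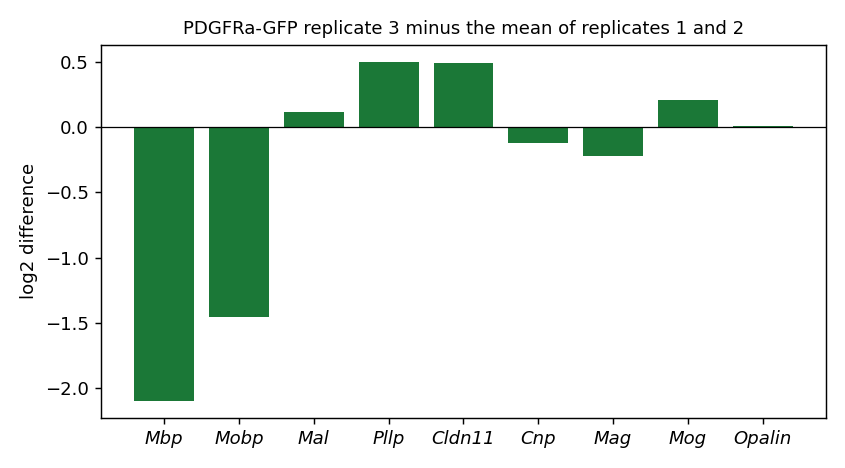
Log2 value in PDGFRa-GFP replicate 3 minus the mean of replicates 1 and 2, 1 bar per gene, from single libraries with no error bar. Mbp (-2.09) and Mobp (-1.46) are far below 0, and Pllp and Cldn11 reach 0.50 and 0.49.

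The spread within groups also differed between members. The SD of Mbp was 1.21 in PDGFRa-GFP, 0.13 in PLP-GFP and 0.08 in NDRG1-eGFP, against medians of 0.24, 0.10 and 0.15 over genes with a mean of at least 12. Mal (0.07) and Cnp (0.07) had SDs below that median in PDGFRa-GFP. Cldn11 had 0.30, 0.24 and 0.34, above the median in each group.

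For each member the 3 genes with the most similar course over the 9 libraries were sought among 2580 annotated genes with a mean of at least 12. The libraries share their normalization and fall into groups, so Pearson's r is given as a description only. The trend on transcript length was left in these values. Mog was closest to Ddrgk1 (0.99), Psmc3 (0.99) and Tpgs1 (0.99), Opalin to Snrpd3 (0.99), Cwc15 (0.98) and Hsbp1 (0.98), and Pllp to Smim7 (0.99), Rps3 (0.99) and Srp14 (0.98). Mag was closest to the actin severing gene Gsn (0.94), Acss2 (0.93) and Pomgnt1 (0.92), and Mal to Gorasp2 (0.95), Smim1 (0.94) and the sphingosine phosphate receptor gene S1pr5 (0.94). Cnp was closest to Syt11 (0.99), which shares 5.86% of its 50-base transcript windows with other loci, Dis3l2 (0.95) and Rftn1 (0.95).

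Mbp was closest to the kinesin light chain gene Klc1 (0.99), Nap1l5 (0.99) and Bcas1 (0.98), a gene of early myelinating cells. Without PDGFRa-GFP replicate 3 these were 0.94, 0.90 and 0.91. Mobp was closest to Nap1l5 (0.96), Paf1 (0.96) and Cdk11b (0.95). Cldn11 was closest to Atp5h (0.98), Chchd2 (0.96) and Arl6ip5 (0.96), of which Atp5h and Chchd2 share 19.9% and 13.2% of their 50-base transcript windows with other loci, so that reads could be split between copies.

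Other genes of the sheath were given by a list of 38, of which 34 were measured. In NDRG1-eGFP against PLP-GFP 13 of 34 rose and 6 fell, with a median of 0.23, beside 26.1% higher, 22.2% lower and a median of 0.08 over all genes. Gamt, which completes creatine synthesis, went from 12.99 ± 0.20 to 14.68 ± 0.14 (SD, n = 3), a log2 fold change of 1.70 ± 0.14 (SE), and Ninj2 and Pmp22, a peripheral myelin gene, rose by 1.76 ± 0.21 and 1.03 ± 0.14. Cadm4, an adhesion molecule on the side of the sheath that meets the axon, fell by 2.20 ± 0.24. In PLP-GFP against PDGFRa-GFP 3 rose and 4 fell, beside 8.46% and 8.53% of all genes, with Gamt at -0.80 ± 0.14 and Ninj2 at -1.70 ± 0.21, both called. Gamt and Ninj2 thus had the course of Opalin, Pllp and Mog over both steps. The trend on transcript length was not removed from the values of this list or of the lists below. In NDRG1-eGFP against PDGFRa-GFP 8 rose and 1 fell, Cadm4 (-2.22 ± 0.24), beside 10.7% and 10.4% of all genes, and Gamt was at 0.90 ± 0.14.

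The transcription factors and chromatin enzymes that control myelin genes did not move as one. Of 18 measured, 4 rose and 6 fell in NDRG1-eGFP against PLP-GFP, a share close to the 48.3% of all genes called there. Myrf, the factor required for myelin gene expression, averaged 15.54 ± 0.38 in PDGFRa-GFP, 16.15 ± 0.11 in PLP-GFP and 14.85 ± 0.14 in NDRG1-eGFP (SD, n = 3). It was highest in the group where Mog, Opalin and Pllp were lowest, with log2 fold changes of 0.61 ± 0.18 and -1.30 ± 0.18 (SE) over the steps (limma adjusted p = 0.0424 and 3.49e-04). Sox8 rose by 0.87 ± 0.13 in the latter, and the chromatin remodeller gene Chd8 fell by 1.10 ± 0.12. Hdac1, a histone deacetylase gene, fell by 1.25 ± 0.12 but shares 35.3% of its windows. In PLP-GFP against PDGFRa-GFP 1 rose and 2 fell, near the 17.0% of all genes called. In NDRG1-eGFP against PDGFRa-GFP 2 rose and 6 fell, or 4 without genes that share over 5% of their windows, beside 10.7% and 10.4% of all genes.

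Genes for the binding, transport and local translation of myelin transcripts fell in 11 of 16 in NDRG1-eGFP against PLP-GFP and rose in 1, with a median of -0.71, beside 22.2% lower, 26.1% higher and a median of 0.08 over all genes. Of these 16, 4 share over 5% of their windows, and without them 8 fell. Kif1b, a kinesin gene known to be needed for Mbp transcript transport, averaged 16.39 ± 0.49, 17.42 ± 0.31 and 15.79 ± 0.23 (SD, n = 3) in PDGFRa-GFP, PLP-GFP and NDRG1-eGFP. It rose by 1.03 ± 0.24 (SE) and fell by 1.63 ± 0.24 over the steps. Hnrnpf (-1.89 ± 0.16), Hnrnpk (-1.54 ± 0.11) and Ybx1 (-1.26 ± 0.11) are RNA-binding protein genes that also fell, but share 36.8%, 14.5% and 15.4% of their windows. In PLP-GFP against PDGFRa-GFP 3 of 16 rose and 0 fell by limma, beside 8.46% and 8.53% of all genes. In NDRG1-eGFP against PDGFRa-GFP 1 rose and 6 fell, but only 3 fell without the genes that share windows, beside 10.7% and 10.4% of all genes.

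Of 20 myelin lipid enzymes 8 rose and 4 fell in NDRG1-eGFP against PLP-GFP, beside 26.1% and 22.2% of all genes. Gal3st1, which makes sulfatide, rose by 0.88 ± 0.13, the elongase gene Elovl1 by 1.15 ± 0.13 and the cholesterol enzyme gene Sqle by 0.78 ± 0.14. Acaca, of fatty acid synthesis, fell by 2.51 ± 0.32 and shares 30.4% of its windows. In PLP-GFP against PDGFRa-GFP 2 rose and 1 fell, near the 17.0% of all genes called. In NDRG1-eGFP against PDGFRa-GFP 6 rose and 1, Acaca, fell, beside 10.7% and 10.4% of all genes.

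Summed fibroblast-like markers and dissociation stress genes were lowest in PLP-GFP, the group in which Mog, Opalin and Pllp were lowest. Microglial and astrocyte sums in PLP-GFP overlapped those of PDGFRa-GFP but not those of NDRG1-eGFP. Neuron and endothelial sums overlapped between all groups. Medians separated some groups differently. Microglial medians were 6.97 to 7.34 in PLP-GFP, below 7.57 to 8.38 in PDGFRa-GFP and 8.22 to 8.92 in NDRG1-eGFP. Endothelial medians, in that order, were 5.97 to 7.13, 9.03 to 9.71 and 7.50 to 10.13. Astrocyte medians in PLP-GFP (8.70 to 9.12) lay below PDGFRa-GFP (9.51 to 10.13) but overlapped NDRG1-eGFP (9.09 to 9.49). Dissociation stress medians in PLP-GFP (9.24 to 9.48) overlapped PDGFRa-GFP (9.29 to 12.93). The part of any of these lists in the results was not tested. The 9 measured fibroblast-like markers of 11 summed to 3.26 to 7.21 ppm of the summed linear values in PLP-GFP, 104 to 197 in PDGFRa-GFP and 47.1 to 167 in NDRG1-eGFP, and 8 were higher in NDRG1-eGFP than in PLP-GFP, beside 26.1% of all genes. The 11 measured microglial markers of 12 summed to 50.1 to 73.5 ppm in PLP-GFP, 66.3 to 103 in PDGFRa-GFP and 106 to 153 in NDRG1-eGFP. The 12 dissociation stress genes summed to 249 to 270 ppm in PLP-GFP, 279 to 3931 in PDGFRa-GFP and 531 to 4326 in NDRG1-eGFP. The 12 astrocyte markers summed to 270 to 333 ppm in PLP-GFP, 303 to 561 in PDGFRa-GFP and 483 to 764 in NDRG1-eGFP. The 7 measured neuron markers of 11 gave 78.0 to 165 ppm over all libraries, and the 3 measured endothelial markers of 9 gave 15.04 to 39.26. No marker was listed at 0, since the lowest value of any library was 0.29.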

How the data were processed

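Each library came as 1 table of 11315 gene symbols with a normalized value, which the authors deposited and which was read as log2 from its range. The column headers say only that values are normalized. BWA, DESeq2 1.2.5 and the mm10 build are listed, per the submitters' processing notes, without a role, and the counting, strand setting, filters and normalization method are not given in the sources used here. Sorted values nearly coincide between libraries, so top values are tied. 17 symbols had turned into dates and could not be matched to genes.

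Group differences were fitted with limma 3.58.1 (trend, R 4.3.3) over all 9 libraries with a term per group, two-sided, with Benjamini-Hochberg adjustment over 11315 genes and an adjusted p under 0.05 called. A filter of a value of at least 1 in 3 libraries removed 0 genes. An exact permutation test of 3 against 3 cannot go below 0.1 and was not used. The procedure was tested on simulated data, drawn independently per gene and library. They held no length trend and no normalization across libraries, so the test does not cover those features. The 21 alternatives were recentring on the median ratio, normal scores of the ranks, no filter, a mean of at least 8, a constant of 0.1 or 5 added on the linear scale, removal of each library's trend on transcript length, leaving out genes with over 5% shared windows, the replicate block, only the 6 libraries compared, robust empirical Bayes, an adjusted p under 0.01, and leaving out each of 9 libraries. No filter equals the fit as reported, and 19 of the others are refits. Gene positions and lengths are from GENCODE M21 (GRCm38), where 11271 symbols matched, 342 of them through an older symbol. RefSeq promoters were found for 8 of 9 members. Shared windows are 50-base stretches of a gene's transcripts that also occur at other loci.

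Named genes are the 9 members, genes the reporters are named for (1 of them is not reported here), at most 4 genes of each other list by smallest adjusted p, and 3 genes per member by Pearson correlation among genes with a mean of at least 12. The members and lists were chosen with earlier results of these data known.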

Additional observations from a re-analysis of the deposited data

How the results depend on the processing

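Leaving aside no filter, which removed 0 genes, and Mal in PLP-GFP against PDGFRa-GFP, whose difference was 0, of 520 values under 20 alternatives 475 kept their direction and side of the threshold, 29 lost the call, 9 gained it and 7 turned sign, none of these 7 called. Opalin and Mog in NDRG1-eGFP against PLP-GFP and Cldn11 in NDRG1-eGFP against PDGFRa-GFP kept their calls throughout. Where not stated below, the cause of a change was not tested. For NDRG1-eGFP against PLP-GFP, 5 members were called. This became 3 with the length trend removed, 3 at an adjusted p under 0.01 and 3 to 7 with a library left out. Over all genes, 5460 of 11315 were called, and 3774 of 11271 with the length trend removed. At the stricter threshold 3526 genes were called, and 3961 to 6908 with a library left out. For PLP-GFP against PDGFRa-GFP, 3 members became 0 at the stricter threshold and 0 to 3 with a library left out, and 1922 genes became 1047 with the length trend removed, 1066 with only the 6 libraries compared, 292 at the stricter threshold and 278 to 2789 with a library left out. For NDRG1-eGFP against PDGFRa-GFP, 1 member became 2 with normal scores of the ranks and 2 among genes with a mean of at least 8. It became 2 with the length trend removed and 1 to 2 with a library left out. All-gene counts under the normal scores, that mean and the length trend are not given here, so those member counts carry no background. Over all genes, 2383 became 1042 with only the 6 libraries compared, 899 at the stricter threshold and 1316 to 4621 with a library left out. Cnp in NDRG1-eGFP against PLP-GFP turned to -0.035 after recentring and -0.19 with the length trend removed, and Mag in PLP-GFP against PDGFRa-GFP to 0.047 with that trend removed. With a library left out, Mbp in PLP-GFP against PDGFRa-GFP ran from -0.39 to 0.69, Mobp from -0.38 to 0.39, and Pllp in NDRG1-eGFP against PDGFRa-GFP from -0.24 to 0.062.

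No pairing by replicate number was seen: deviations of same-numbered libraries correlated from -0.23 to 0.09, and 0 of 9 pairs passed 0.1. Other pairs ran from -0.13 to 0.23. With 3 libraries a group this check cannot exclude a day or batch shared by replicate number. With the replicate block, members called were 4 in NDRG1-eGFP against PLP-GFP, 1 in PLP-GFP against PDGFRa-GFP and 1 in NDRG1-eGFP against PDGFRa-GFP. In the same order, 4680, 722 and 1321 of all 11315 genes were called.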
